A study of Mus musculus with 6 samples.

Results

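Aldehyde dehydrogenases are NAD(P)+-dependent enzymes that turn reactive aldehydes into acids, and 10 genes of this family were followed in 4T1-LM3 cells, out of 16426 genes in the deposited table. Their rows were found by symbol: Aldh3a1, Aldh3a2, Aldh2, Aldh1b1, Aldh1a3, Aldh7a1, Aldh9a1, Aldh6a1, Aldh4a1 and Aldh18a1. All 10 are in the table, and 9 further genes whose symbols begin with Aldh are there as well. 4T1-LM3 is a mouse mammary carcinoma line. In 3 samples the cells received conditioned medium (CM, medium that carries what other cells released) from matrix fibroblasts (MFs) called Tdo2high. Tdo2 encodes tryptophan 2,3-dioxygenase, which opens the path from tryptophan to kynurenine. A further 3 samples received a control medium, for which the labels name no cell source. Polyadenylated RNA was sequenced, and levels are given as FPKM (fragments relative to transcript length and to all mapped fragments), which are scaled by length and so can be compared between genes. No samples with kynurenine alone or with medium from fibroblasts low in Tdo2 were analysed here. A part played by Tdo2 therefore cannot be told apart from other differences between the media. The labels do not tell whether the 3 samples of a medium were grown apart, so the spread behind each p-value may be technical.

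Members of this family differ mainly in the aldehyde they take and in where in the cell they sit. Some clear aldehydes from lipid peroxidation or alcohol, some make retinoic acid, and others finish the breakdown of single amino acids. Aldh18a1 is the exception in chemistry: its protein makes a semialdehyde, the precursor of proline, from glutamate. In mouse and human cells, Aldh3a1 is known as a gene that xenobiotics can induce, through the aryl hydrocarbon receptor (AhR) among other factors, and kynurenine is a ligand of that receptor.

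Across the 6 libraries, FPKM summed to between 438603 and 447415, and each library had 10765 to 10791 genes at 1 FPKM or more. How many reads lie behind a value is unknown, because FPKM does not keep the depth. Keratins Krt8 and Krt18, fixed as markers of the carcinoma cells, were high, with a summed level of 637 to 668 FPKM with Tdo2high MFs CM and 615 to 651 FPKM with Control CM. Of 8 fibroblast markers, 6 are in the table and 3 of these stayed below 1 FPKM throughout, with Col1a1 at most at 0.12, Col1a2 at 0.01 and Lum at 0.03 FPKM. The 6 together summed to 80.7 to 82.7 FPKM with Tdo2high MFs CM and 80.5 to 82.3 FPKM with Control CM. That sum came from Pdgfra (47.3 ± 0.194 and 41.9 ± 0.215 FPKM in the same order of media, SD, n = 3 each), Pdgfrb (23.1 ± 0.400 and 23.6 ± 0.537) and Dcn (10.9 ± 0.935 and 15.5 ± 0.516). The near-equal sums hide opposite changes by the limma test described below. Dcn was lower (log2 fold change -0.48, adjusted p = 0.00114 by limma) and Pdgfra higher (0.17, adjusted p = 0.00518), while Pdgfrb was not called. The summed levels of the 5 myeloid markers were 7.85 to 9.82 FPKM with Tdo2high MFs CM and 6.11 to 8.33 FPKM with Control CM, nearly all of it Cd14. Endothelial and lymphocyte markers did not reach 1 FPKM in any library. Whether any part of the results below comes from such cells was not tested.

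A gene was tested if 3 or more of the 6 libraries gave it 1 FPKM or more (10804 genes), as log2(FPKM + 1) with limma and Benjamini-Hochberg adjustment over all of them. A gene was called changed at an adjusted p under 0.05. The rule called 7.41% of all tested genes, 3.35% as higher and 4.06% as lower with Tdo2high MFs CM (362 and 439 genes). Scaled by the median of ratios, the calls were 455 higher and 367 lower. On the TPM scale (FPKM brought to the same sum in each library) they were 320 higher and 505 lower. Of the 10 members, 8 passed the filter, each with at least 1 FPKM in all 6 libraries. Aldh3a1 and Aldh2 were called higher, Aldh18a1 was called lower, and the other 5 were not called. The median log2 fold change of the 8 was 0.004, beside -0.01 for all tested genes. In 6 of the 8 the libraries of the media did not overlap, against 29.2% of all tested genes. The members were chosen with earlier results of these data known, so these counts are no independent support. Aldh1b1 and Aldh1a3 stayed below 1 FPKM in every library and were not tested.

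**Figure D1:**
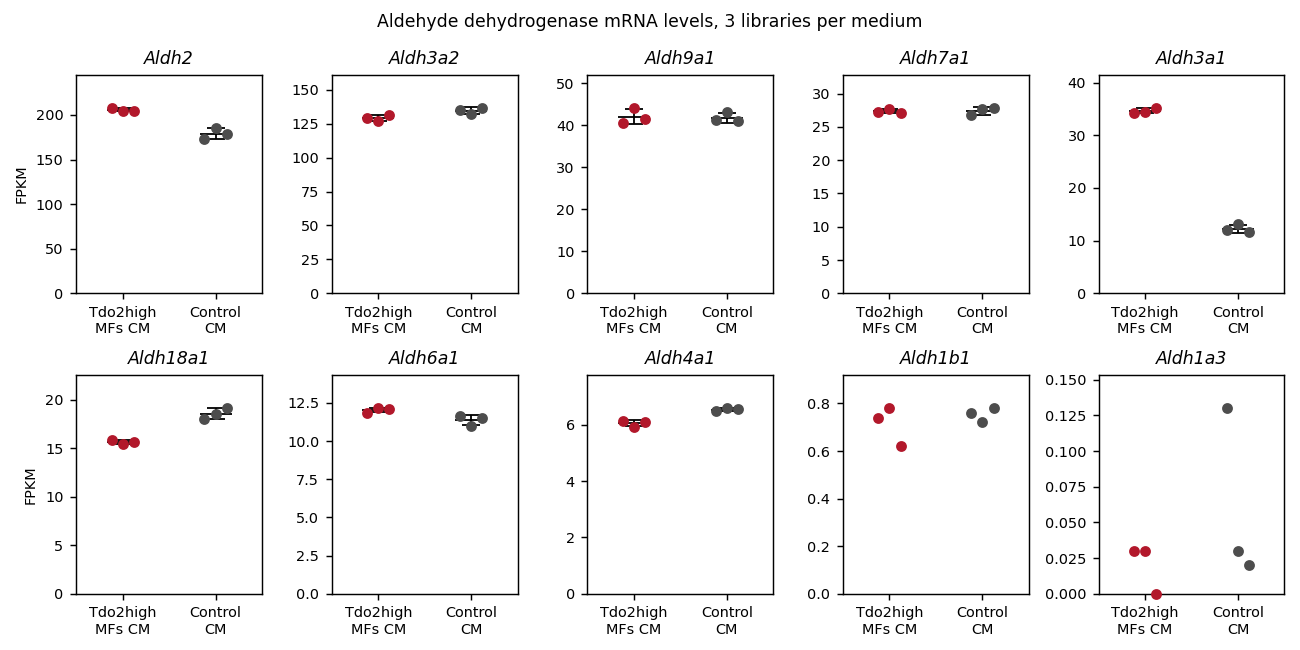
FPKM of the 10 members in each library (points; Tdo2high MFs CM in red, Control CM in grey), with the mean and SD of 3 libraries (bars) for the 8 tested members; each panel has its own linear axis from 0. For Aldh3a1 the 3 libraries with Tdo2high MFs CM lie between 34.3 and 35.2 FPKM and those with Control CM between 11.6 and 13.1 FPKM, while Aldh7a1 and Aldh9a1 overlap between media.

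The mRNA of Aldh3a1, a cytosolic enzyme that oxidises medium-chain and aromatic aldehydes, including products of lipid peroxidation, made the largest move among the tested members. Its level was 34.3, 34.5 and 35.2 FPKM with Tdo2high MFs CM, against 11.9, 13.1 and 11.6 FPKM with Control CM. The lowest library with Tdo2high MFs CM thus stood well above the highest with Control CM. Means were 34.7 ± 0.461 and 12.2 ± 0.754 FPKM (SD, n = 3 each, Tdo2high MFs CM first), a ratio of 2.84. On the log2(FPKM + 1) scale the fold change was 1.43 ± 0.04 (SE; adjusted p = 9.02e-08 by limma), rank 3 of 10804 among rises. The call held in all 17 alternative settings, with log2 fold changes between 1.4 and 1.5. Aldh3a1 (NCBI gene 11670) lies on chromosome 11 from 61208510 to 61218418 on GRCm38, on the plus strand.

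The neighbouring gene Aldh3a2 was not called. It encodes the fatty aldehyde dehydrogenase of the endoplasmic reticulum, and it lies on the other strand (chromosome 11, 61223417 to 61267528). The genes face each other, with 4998 bases between their 3′ ends, so the start of Aldh3a2 is at its far side from Aldh3a1. Levels were 129.3, 127.1 and 131.1 FPKM with Tdo2high MFs CM and 135.1, 132.0 and 136.5 FPKM with Control CM. Every library with Tdo2high MFs CM was a little lower than every Control CM library, but the difference was not called (log2 fold change -0.06, 95% interval -0.12 to 0.002, adjusted p = 0.225 by limma). The Aldh3a1 level as a ratio to the Aldh3a2 level, taken within each library and so free of library scaling, was 0.265, 0.271 and 0.268 with Tdo2high MFs CM and 0.0884, 0.0990 and 0.0853 with Control CM. The ratios of the media did not overlap. For these ratios no p is given, since 3 libraries against 3 allow an exact permutation test no p under 0.1.

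RefSeq's promoter windows (GRCm38.p6, 250 bases before to 50 after a gene start) exist for 6 of the 10 members in the table used here, Aldh3a2, Aldh9a1, Aldh4a1, Aldh6a1, Aldh1b1 and Aldh18a1. The window of Aldh3a2 is shown because this gene is the chromosomal neighbour of Aldh3a1 (the window itself is at the far end of the gene), that of Aldh18a1 because its mRNA fell, and that of Aldh9a1 because it alone holds an antioxidant core and its mRNA was not called. Each reads 5′ to 3′ on the strand of the gene, and capitals mark every match to 3 motifs searched on both strands, none of which overlap. The motifs were the antioxidant response element core TGACNNNGC, the xenobiotic response element core GCGTG and the C/EBP-ATF response element TGATGNAAN, known sites for NRF2, AhR and ATF4. A window belongs to 1 annotated start of its gene, which need not be the outer end of the gene.
Aldh3a2, minus strand, chr11:61267137-61267436: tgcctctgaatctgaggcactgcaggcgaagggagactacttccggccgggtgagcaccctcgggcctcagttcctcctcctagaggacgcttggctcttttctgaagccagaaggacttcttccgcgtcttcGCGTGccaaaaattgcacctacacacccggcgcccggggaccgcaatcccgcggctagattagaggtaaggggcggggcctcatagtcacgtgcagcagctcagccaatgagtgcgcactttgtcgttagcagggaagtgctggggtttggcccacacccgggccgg
Aldh18a1, minus strand, chr19:40588414-40588713: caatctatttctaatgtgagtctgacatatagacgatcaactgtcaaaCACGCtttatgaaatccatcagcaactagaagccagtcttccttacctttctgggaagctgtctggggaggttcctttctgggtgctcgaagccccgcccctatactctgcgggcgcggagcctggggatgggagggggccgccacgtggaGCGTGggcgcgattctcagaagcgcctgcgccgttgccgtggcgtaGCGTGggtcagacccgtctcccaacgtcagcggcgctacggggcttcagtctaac
Aldh9a1, plus strand, chr1:167349741-167350040: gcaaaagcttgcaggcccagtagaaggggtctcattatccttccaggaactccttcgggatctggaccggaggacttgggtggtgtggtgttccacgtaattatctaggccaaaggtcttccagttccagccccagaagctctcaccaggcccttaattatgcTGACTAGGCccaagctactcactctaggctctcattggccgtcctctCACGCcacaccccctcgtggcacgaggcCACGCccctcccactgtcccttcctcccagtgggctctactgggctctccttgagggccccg

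The xenobiotic core was found in windows of 5 of these 6 members, all but Aldh1b1. By window, it was in 5 of their 7 windows and in 32.4% of all 32851 windows. Aldh6a1 has a further window without any match. Aldh18a1 holds 3 copies and Aldh3a2 holds 1. Of the 6 members, Aldh9a1 alone has the antioxidant core, as TGACTAGGC, which occurs in 12.4% of all windows. No member window has the C/EBP-ATF motif, found in 3.95% of all windows. These are matches of letters in short windows and say nothing about binding. Of the 3 called members only Aldh18a1 has a window here, so called members and members not called cannot be compared.

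Among enzymes of the mitochondrial matrix, Aldh2 is best known for oxidising acetaldehyde and lipid peroxidation products. It was the most abundant member with either medium. Levels were 207.9, 204.5 and 204.8 FPKM with Tdo2high MFs CM, against 173.2, 185.1 and 178.4 FPKM with Control CM, again without overlap. The mean was 15.0% higher with Tdo2high MFs CM, a log2 fold change of 0.20 ± 0.03 (SE; adjusted p = 0.00415 by limma; 0.18 to 0.24 over the 17 alternatives, called in each). In absolute terms this small relative rise was the larger, 26.9 FPKM on the mean against 22.4 FPKM for Aldh3a1. Aldh1b1, a mitochondrial relative whose coding sequence is 70.2% identical to that of Aldh2, stood at 0.74, 0.78 and 0.62 FPKM with Tdo2high MFs CM and 0.76, 0.72 and 0.78 FPKM with Control CM. These values overlap.

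Aldh1a3 makes retinoic acid from retinal and is often studied in breast cancer as a source of aldehyde dehydrogenase activity. Here it was listed at 0.03, 0.03 and 0 FPKM with Tdo2high MFs CM and at 0.13, 0.03 and 0.02 FPKM with Control CM, too low to compare. Its relative Aldh1a1, outside the 10 members, also makes retinoic acid. It had 0.75, 0.58 and 0.85 FPKM with Tdo2high MFs CM and 0.29, 0.34 and 0.51 FPKM with Control CM. The groups do not overlap, but with no filter on low values the gene was not called (log2 fold change 0.32, adjusted p = 0.107 by limma). Aldh1a7, at most 0.16 FPKM, matches Aldh1a1 over 91.7% of the coding sequence, with a shared run of 100 bases, so the reads of these genes may be split uncertainly.

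The fall in the family was that of Aldh18a1, delta-1-pyrroline-5-carboxylate synthase, which commits glutamate to proline. Its mRNA stood at 15.9, 15.5 and 15.7 FPKM with Tdo2high MFs CM, against 18, 18.6 and 19.15 FPKM with Control CM. No library with Tdo2high MFs CM reached the lowest Control CM library. The log2 fold change was -0.23 ± 0.04 (SE; adjusted p = 0.00603 by limma), rank 222 of 10804 among falls, and -0.25 to -0.20 over the 17 alternatives, called in each. Aldh18a1 lies on chromosome 19 from 40550257 to 40588463, on the minus strand.

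Aldh4a1 is the mitochondrial enzyme of the opposite reaction step, which oxidises the same semialdehyde to glutamate during proline breakdown. It had 6.15, 5.94 and 6.10 FPKM with Tdo2high MFs CM and 6.48, 6.59 and 6.56 FPKM with Control CM. The media did not overlap, yet the difference was not called (log2 fold change -0.09, 95% interval -0.20 to 0.008, adjusted p = 0.246 by limma). Aldh18a1 mRNA per Aldh4a1 mRNA was 2.58, 2.61 and 2.57 with Tdo2high MFs CM and 2.78, 2.82 and 2.92 with Control CM, so the ratio was lower in every library with Tdo2high MFs CM.

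The remaining members finish the breakdown of amino acids and amines. Aldh7a1, which oxidises the semialdehyde formed from lysine, had 27.3, 27.7 and 27.1 FPKM with Tdo2high MFs CM and 26.7, 27.7 and 27.9 FPKM with Control CM. Its log2 fold change was -0.003 (95% interval -0.07 to 0.07), and the sign turned in 6 of 17 alternatives. Aldh9a1, which serves carnitine synthesis and the oxidation of aminobutyraldehydes, had 40.5, 44.1 and 41.6 FPKM with Tdo2high MFs CM and 41.2, 43.1 and 40.9 FPKM with Control CM. For Aldh9a1 the log2 fold change was 0.01 (95% interval -0.07 to 0.10). Both genes' values overlap between media, and the intervals leave room for changes of up to 0.10 on the log2 scale.

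Aldh6a1, the methylmalonate semialdehyde dehydrogenase of valine breakdown, had 11.9, 12.2 and 12.1 FPKM with Tdo2high MFs CM and 11.6, 11 and 11.5 FPKM with Control CM. All 3 libraries with Tdo2high MFs CM were higher, but by a log2 fold change of only 0.07 (95% interval -0.01 to 0.16, adjusted p = 0.298 by limma), which was not called.

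**Figure D2:**
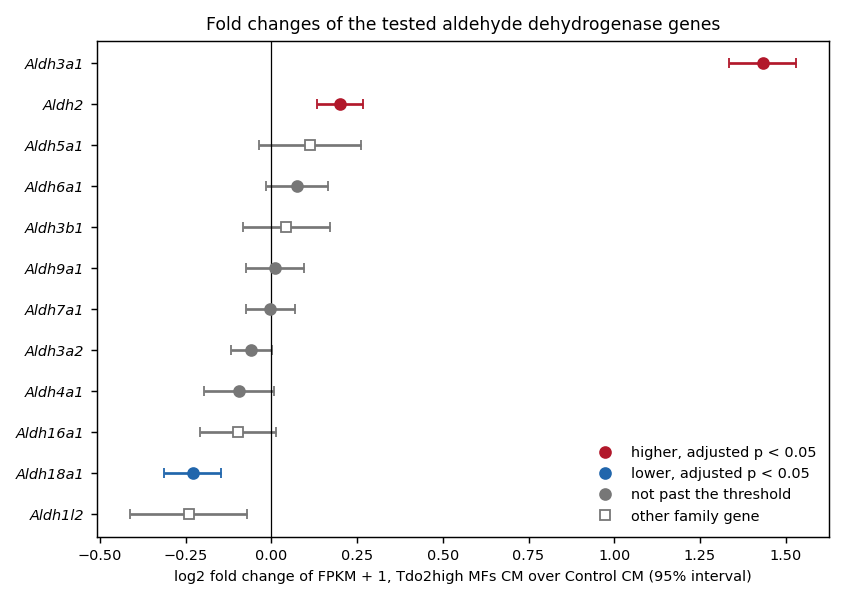
Log2 fold change of FPKM + 1 (Tdo2high MFs CM over Control CM) with its 95% interval from limma for the 12 tested aldehyde dehydrogenase genes; circles are the 8 tested members, open squares 4 other family genes, and colour marks an adjusted p under 0.05. Aldh3a1 at 1.43 stands apart from the rest, which lie between -0.24 and 0.20.

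Libraries of a medium were close to each other for these genes. The coefficient of variation of the 8 tested members ran from 0.905% to 4.41% (median 1.29%) with Tdo2high MFs CM and from 0.869% to 6.17% (median 2.91%) with Control CM, highest for Aldh9a1 and Aldh3a1 in that order of media. Levels ranked in the same order with either medium except for Aldh3a1. With Tdo2high MFs CM the order was Aldh2, Aldh3a2, Aldh9a1, Aldh3a1, Aldh7a1, Aldh18a1, Aldh6a1, Aldh4a1, Aldh1b1 and Aldh1a3. With Control CM, Aldh3a1 stood below Aldh18a1 and just above Aldh6a1, whose highest library (11.63 FPKM) was just under its lowest (11.64 FPKM). No neighbours in either order overlapped in their libraries.

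Summed over the 10 members, the family level was 474, 472 and 474 FPKM with Tdo2high MFs CM and 425, 438 and 433 FPKM with Control CM, a difference of 41.4 FPKM between means. Aldh3a1 made up 7.32% ± 0.0905 of that sum with Tdo2high MFs CM and 2.83% ± 0.150 with Control CM (SD, n = 3 each). The share of Aldh2 was 43.4% ± 0.361 and 41.4% ± 0.784 in the same order, and that of Aldh3a2 was 27.3% ± 0.365 and 31.1% ± 0.879. Shares depend on each other, so the lower share of Aldh3a2 follows in part from the higher levels of Aldh3a1 and Aldh2.

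**Figure D3:**
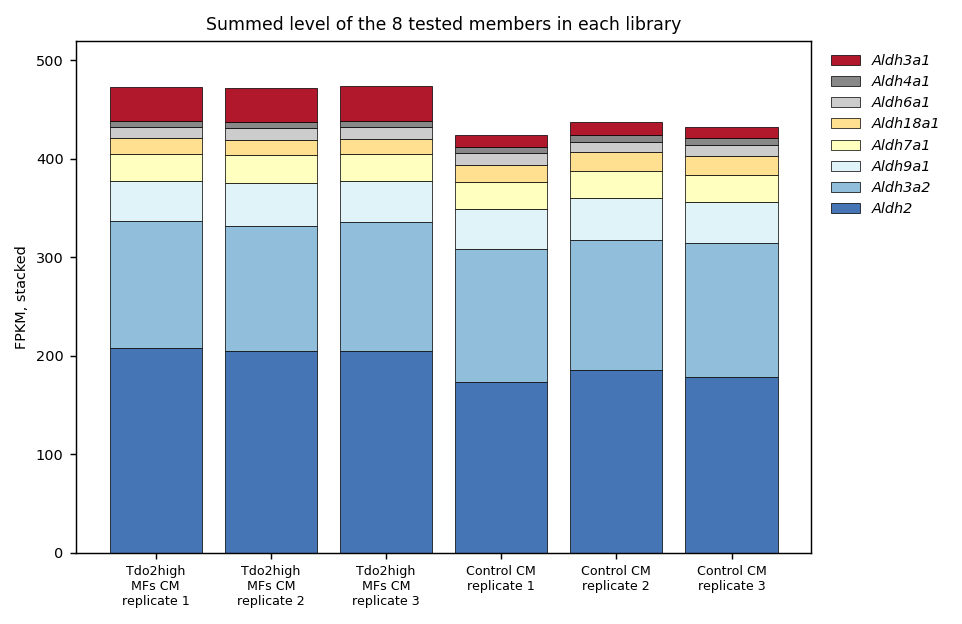
Stacked FPKM of the 8 tested members in each of the 6 libraries (linear axis from 0), Tdo2high MFs CM on the left and Control CM on the right. Sums over all 10 members are 472 to 474 FPKM with Tdo2high MFs CM and 425 to 438 FPKM with Control CM, and the top segment, Aldh3a1, is the one that differs most in relative height.

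Of the 9 other family genes in the table, 4 passed the filter and none was called by limma, while 1 (Aldh1l2) had an unadjusted p under 0.05. Aldh1l2, a mitochondrial enzyme that oxidises 10-formyltetrahydrofolate, had 0.98, 0.99 and 0.93 FPKM with Tdo2high MFs CM and 1.28, 1.25 and 1.45 FPKM with Control CM. It passed the filter through its Control CM libraries alone, so that its difference cannot count as support (log2 fold change -0.24, adjusted p = 0.0876; 0.0263 without the intensity trend). Aldh5a1, which oxidises succinic semialdehyde, averaged 2.77 ± 0.1 and 2.49 ± 0.196 FPKM (SD, n = 3 each, Tdo2high MFs CM first), Aldh16a1 7.78 ± 0.168 and 8.40 ± 0.439 FPKM, and Aldh3b1, which acts on lipid aldehydes at membranes, 9.59 ± 0.748 and 9.26 ± 0.323 FPKM. Aldh8a1, an enzyme of the later kynurenine pathway, did not exceed 0.05 FPKM, and Aldh1l1 did not exceed 0.02 FPKM. Aldh3b3 was listed at 0 in every library. Aldh1a2 and Aldh3b2 were not analysed here.

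Coding parts of the members run from 1359 bases (Aldh3a1) to 2385 bases (Aldh18a1). Aldh3a1 has 11 exons and encodes 453 residues in the GENCODE transcript with the longest coding part, Aldh3a2 has 10 exons and 532 residues, and Aldh18a1 has 19 exons and 795 residues. Aldh3a1 is nearest in sequence to Aldh3b1, at 60.3% coding identity with a longest shared run of 26 bases, and is 57.7% identical to Aldh3a2 with a shared run of 20 bases. No member shared a coding run of more than 26 bases with any other family gene in the table. The read length is not stated in the labels.

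Genes whose pattern was most like that of Aldh3a1 were sought among all tested genes by the distance between mean-centred log2(FPKM + 1) values over the 6 libraries. The nearest was Nqo1, a quinone reductase, at a distance of 0.08, with 37.8, 36.8 and 37.2 FPKM in the libraries with Tdo2high MFs CM and 12.6, 13.6 and 12.9 FPKM in those with Control CM. In both genes, Control CM replicate 2 was the highest of its group. With Tdo2high MFs CM the genes differed, with replicate 3 highest for Aldh3a1 and replicate 1 highest for Nqo1. Next came Neurl3 at 0.31, Osgin1 at 0.38, the glutathione transferase Gstm1 at 0.48 and S100a8 at 0.64. With 2 groups of libraries, this distance mainly reflects a rise of like size.

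NRF2 switches on antioxidant and detoxifying genes, and 25 of its known targets were listed for comparison. This and the other lists were chosen with earlier results of these data known, so their counts are no independent support. Among all tested genes, 3.35% were called higher and 4.06% lower. Of the 23 NRF2 targets tested, 19 rose and none fell by limma (adjusted p under 0.05). Their median log2 fold change was 0.34, against -0.01 for all tested genes. The largest were Nqo1 (1.45 ± 0.04, SE), Osgin1 (1.23 ± 0.06), Gstm1 (1.05 ± 0.03) and Gclc (0.73 ± 0.03), the last the catalytic subunit for glutathione synthesis. Aldh3a1, at 1.43, lay between the first and second of these. The 4 targets not called were Hmox1 (0.24, adjusted p = 0.272 by limma), Sqstm1 (0.06), Ugdh (0.05) and Taldo1 (-0.05). The AhR list has 10 genes, of which 7 are in the table and 6 were tested, with 1 under the filter. The other 3, Cyp1a1, Cyp1a2 and Ahrr, were not analysed here. Of the 6 tested, 4 were called higher and none lower, beside 3.35% and 4.06% of all tested genes. Besides Nqo1, which is on both lists, these were Tiparp (0.25 ± 0.04), a feedback inhibitor of the receptor, and the cytochrome P450 Cyp1b1 (0.16 ± 0.03). The fourth was the glucuronosyltransferase gene Ugt1a6a (0.65 ± 0.15), whose reads may be split with paralogs that use the same exons. It had 1.05, 1 and 1.81 FPKM with Tdo2high MFs CM and 0.58, 0.57 and 0.21 FPKM with Control CM, so it passed the filter only through the libraries in which it was high and had to differ. The Ugt1a6a call ended without Tdo2high MFs CM replicate 3 or any 1 Control CM replicate (adjusted p = 0.0507 to 0.0845 by limma). The receptor Ahr itself had 10.1 ± 0.312 FPKM with Tdo2high MFs CM and 9.24 ± 0.195 FPKM with Control CM and was not called. Arnt, also on the AhR list, was not called either (log2 fold change -0.04).

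Other enzymes that clear aldehydes gave 5 rises and no fall among 13 tested of 16 listed, with a median log2 fold change of 0.07. Among all tested genes, 3.35% were called higher and 4.06% lower. Aox1, aldehyde oxidase, had 36.2 ± 1.32 FPKM with Tdo2high MFs CM and 21.5 ± 0.734 FPKM with Control CM (SD, n = 3 each). Gsta4, a glutathione transferase that takes up 4-hydroxynonenal, averaged 67.1 ± 0.437 and 41.9 ± 2.89 FPKM in that order of media and is also on the NRF2 list. Adh7, an alcohol dehydrogenase active on retinol, averaged 19.3 ± 0.746 and 12.8 ± 0.487 FPKM. Esd, which acts in the glutathione-dependent removal of formaldehyde, averaged 154 ± 4.01 and 125 ± 5.48 FPKM. The fifth, Ptgr1 (0.17 ± 0.04), was named after its value was seen, and its call ended without any 1 library except Tdo2high MFs CM replicate 3 (adjusted p = 0.0582 to 0.117 by limma). The aldo-keto reductases Akr1b3 (0.03), Akr1b8 (0.07) and Akr1a1 (-0.02) were not called, nor was Adh5 (0.006), the main formaldehyde dehydrogenase.

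Around Aldh18a1 and Aldh4a1, 1 of 8 tested proline and glutamate genes (10 symbols listed, Pycrl and Pycr3 being 1 gene) rose and 2 fell. Their median log2 fold change was -0.07, and 7.41% of all tested genes were called in either direction. Pycr1, which completes proline synthesis in mitochondria, averaged 6.23 ± 0.717 FPKM with Tdo2high MFs CM and 7.70 ± 0.296 FPKM with Control CM (log2 fold change -0.27). Glutamine synthetase Glul rose by 0.20 on the log2 scale. The call of Pycr1 ended without any 1 library except Tdo2high MFs CM replicate 3 (adjusted p = 0.0786 to 0.141 by limma). Prodh (5.40 ± 0.307 and 5.72 ± 0.12 FPKM, Tdo2high MFs CM first) and Oat (102 ± 1.83 and 96.6 ± 0.789 FPKM) were not called.

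Calls in the lists for the other members are given beside the 7.41% of all tested genes that were called. In valine and branched-chain amino acid breakdown, the setting of Aldh6a1, 1 of 18 tested genes rose, Bckdha (0.13). The list held 20 symbols, Mut and Mmut being 1 gene. The Bckdha call ended without any 1 library (adjusted p = 0.0532 to 0.150 by limma). None of 3 tested genes of lysine and choline breakdown (9 listed) was called, and 1 had an unadjusted p under 0.05, Pipox (log2 fold change 0.30, adjusted p = 0.0525 by limma). Of 4 tested genes of the carnitine and polyamine route (8 listed), Smox, spermine oxidase, rose (0.20). The Smox call ended without any 1 library except Control CM replicate 2 (adjusted p = 0.0539 to 0.0869 by limma). In retinoic acid synthesis and response, Rdh10, a retinol dehydrogenase, rose (0.22) and the receptor Rarg fell (-0.18) among 10 tested of 17 listed. Rdh10 lost its call without Tdo2high MFs CM replicate 3 (adjusted p = 0.0565 by limma), and Rarg without any 1 library except Control CM replicate 3 (0.0675 to 0.109).

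Among 11 tested genes of fatty aldehyde and alcohol metabolism (14 symbols listed), the setting of Aldh3a2, 2 rose and 2 fell. Their median log2 fold change was -0.001, and 7.41% of all tested genes were called in either direction. The reductases that turn fatty acyl groups into alcohols moved apart, Far2 at 0.33 and Far1 at -0.14. Phyh, of phytanic acid breakdown, rose (0.14), and Tmem189, which introduces the double bond of plasmalogens, fell (-0.16). Tmem189 is also listed under its other symbol, Peds1. The calls ended without any 1 library except Tdo2high MFs CM replicate 2 for Far2 (adjusted p = 0.0700 to 0.137 by limma) and except Control CM replicate 3 for Far1 (0.0562 to 0.0990). The Phyh call ended without replicate 1 or replicate 3 of either medium (0.0537 to 0.0826), and that of Tmem189 held in all 17 alternatives.

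**Figure D4:**
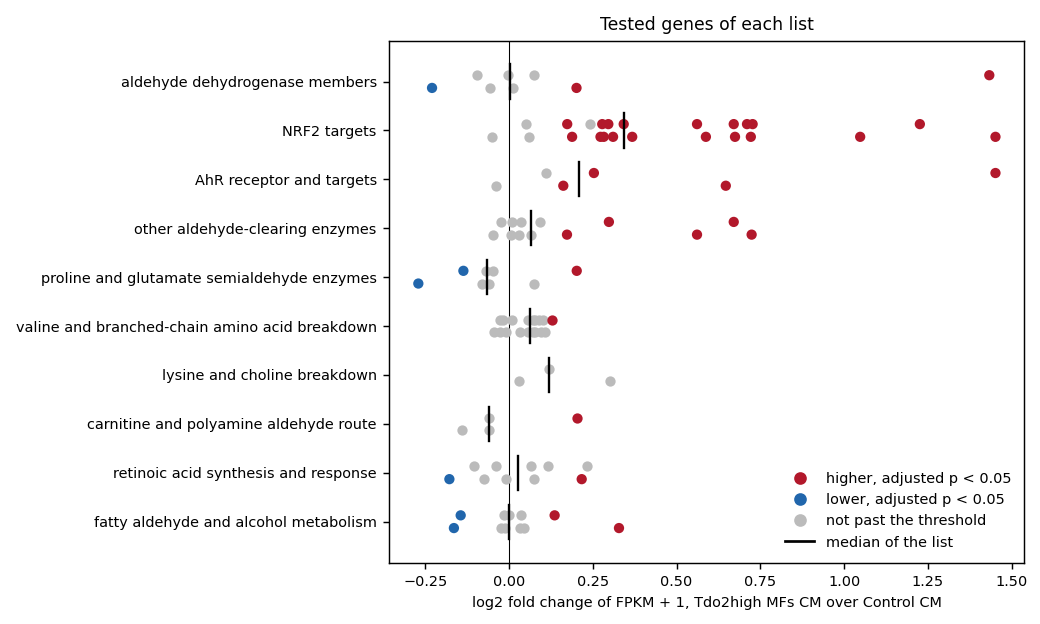
Log2 fold change of FPKM + 1 (Tdo2high MFs CM over Control CM) of each tested gene (points) in the members and the 9 partner lists, with the median of each list (black line); red and blue mark genes called higher and lower at an adjusted p under 0.05, grey those not called. The NRF2 list has 19 of 23 genes in red, against 3.35% of all tested genes called higher, and a median of 0.34. The 8 tested members spread on both sides of 0 with Aldh3a1 alone at the far right.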

How the data were processed

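Messenger RNA of 4T1-LM3 cells was measured in 3 samples per medium, grouped by their titles. The authors deposited 1 table of FPKM values, per the file headers, rounded to 2 decimals, for 16426 genes with NCBI gene numbers. The build was GRCm38, per the submitters' processing notes; which aligner and quantifier were used is not stated in the labels. FPKM is relative to each library's total, so changes in a few abundant genes shift all other values, and rounding blurs low ones. No depth can be read from it, and no count model was used.

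The filter (1 FPKM or more in 3 or more libraries) kept 10804 genes and removed 5622. The test used log2(FPKM + 1) and limma 3.58.1 in R 4.3.3 (two-sided, intensity trend, no replicate block, Benjamini-Hochberg adjustment over all tested genes, threshold 0.05). Code of this fit was checked on normal values simulated from each gene's mean and spread, which does not test how noise in FPKM behaves. Intervals are 95% intervals of that fit, and fold changes on this scale understate changes of low genes. As alternatives, the pseudocount, filter, scaling and variance model were changed in turn, a replicate block was added, and each library was left out. A correction for GC content and transcript length (10633 genes) was chosen after seeing the data.

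The members and lists were chosen with earlier results of these data known. Named genes were the members, all other Aldh genes, up to 4 called genes per list with the largest change (otherwise the largest change), and the 5 nearest profiles to Aldh3a1. Prodh, Oat, Ahr, Arnt, Adh5, Ptgr1, the aldo-keto reductases and the NRF2 targets not called were named after their values were seen. For 1 called gene, the result is not reported here. Positions and promoters come from RefSeq (GRCm38.p6), exons and coding sequences from GENCODE M21, and identities from global alignment (biopython 1.88). Same-numbered samples of the media did not deviate together across genes (Pearson's r of -0.03 to 0.02, beside -0.08 to 0.09 for differently numbered ones). Such values cannot exclude a link that is weak or limited to few genes.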

Additional observations from a re-analysis of the deposited data

How the results depend on the processing

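Over 17 alternatives, none of the 8 tested members changed its call, and 128 of 136 values kept their direction. The 8 exceptions were near 0. On the log2 scale, Aldh7a1 turned to 0.0107 under the median of ratios, 0.0042 under quantile normalization and 0.0116 once GC content and length were corrected for, and ran from -0.0209 to 0.0074 without 1 library. Aldh9a1 ran from -0.0233 to 0.0368 without 1 library. Calls over all genes depended more on the settings. The 801 called genes (362 higher, 439 lower) became 375 (193 and 182) with no filter on low values and 525 (248 and 277) with no intensity trend, and without 1 library they ran from 395 to 559 (209 to 293 higher, 186 to 266 lower). Scaling by the median of ratios split the calls into 455 higher and 367 lower, and the TPM scale into 320 higher and 505 lower. The cause of these shifts was not tested. The replicate block gave 622 called genes and 3 called members, and the calls of Ugt1a6a, Bckdha and Phyh ended under it. Whether same-numbered samples were handled together is not known from their titles. Of 23 called partner genes that were followed, 12 kept their call in every alternative. Read depth is unknown, so for Aldh1b1, Aldh1a3 and the other genes below 1 FPKM no counting error can be given.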
